A study of Mus musculus with 9 samples.

Results

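The genes described here are 31 genes of cholesterol and fatty acid synthesis, chosen by symbol: 9 enzymes of the mevalonate pathway up to squalene and its branches, 10 enzymes that turn squalene into cholesterol, 6 genes that sense, regulate or carry sterols, and 6 enzymes of fatty acid synthesis. All 31 were found among the 23420 genes of the count tables (Sc4mol is the older symbol of Msmo1), and all 31 passed the filter on low counts that left 16360 genes to test. The libraries were made from whole ovaries of wild-type CD1 mouse embryos of embryonic day 16, kept for 24 hours on culture inserts in a phenol red-free medium with insulin, transferrin, selenium and linoleic acid, a fatty acid, which every group received. The medium carried vehicle, recombinant human BMP2 (bone morphogenetic protein 2, a secreted growth factor of the TGF-beta family) at 50 ng/ml, or estradiol-17β (E2, the main ovarian oestrogen) at 3.67 µM. Each group had 3 libraries. The treatment of a library was read from the prefix of its title (E2, B2 for BMP2, C for vehicle), and the labels do not say whether libraries of a group came from separate ovaries or cultures. The p-values therefore measure the spread between these libraries, which may be technical.

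Cholesterol is built from acetyl-CoA through mevalonate, isoprenoid units, farnesyl diphosphate and squalene, and then through a series of sterol intermediates. Fatty acids are built from the same acetyl-CoA by acetyl-CoA carboxylase and fatty acid synthase, and are then lengthened and desaturated. Both routes are governed by the SREBP transcription factors: when membrane sterol is low, SCAP escorts SREBP from the endoplasmic reticulum to the Golgi, where proteases release the active fragment, and INSIG proteins hold the complex back when sterol is plentiful. In the ovary, cholesterol is the substrate of steroid hormones, and dividing and growing cells use both products for membranes.

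Library depth was 30418674 to 34320077 counts in genes. Per kilobase of exon, the 31 genes spanned a wide range of levels in the vehicle libraries. On this scale (normalised read counts scaled to library size, CPM, per kilobase) Scd2, a stearoyl-CoA desaturase, was the highest at 159, followed by Hmgcs1, the HMG-CoA synthase, at 121 and Acly, the ATP-citrate lyase, at 55.3. The lowest was Tm7sf2, a sterol reductase, at 2.80. Elovl6, the elongase of palmitate, ranked 24th at 9.12 with vehicle and stood at 18.1 with E2.

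Promoter sequence was available in RefSeq (GRCm38.p6) for 25 of the 31 genes, as the 250 bases before and 50 after each start site (33 promoters, since some genes have several). Fdps, Fdft1, Sqle, Stard4, Scd1 and Scd2 were not matched. The letters searched, on both strands, were TCACNCCAC for the core of a sterol regulatory element, CCAAT for the box read by NF-Y, a factor that acts together with SREBP, CACGTG for an E-box and GGGCGG for a GC box; no motif is contained in another. CCAAT was present in 22 of 33 promoters (66.7%, against 37.4% of all 32851 promoters in the table), and counted by gene in 21 of 25. GGGCGG was present in 24 of 33 (72.7%, against 35.7%), CACGTG in 6 (18.2%, against 7.15%) and TCACNCCAC in 1 (3.03%, against 1.24%), that of Hmgcs1, 137 bases before the start. The background holds promoters of genes at any level of expression, and shares among genes as highly expressed as the 31 were not taken. A match to letters is a description and not a binding site. Sequence is shown for 6 genes whose responses are described below. Idi1, Lss and Srebf2 were lower with BMP2, and Sc4mol and Elovl6 were higher with E2. Hmgcs1 went the other way from most enzymes with BMP2. For each gene, the 200 bases before the RefSeq start are given. They are written 5′ to 3′ on the strand of the gene, with the matches to CCAAT and TCACNCCAC in capitals and those to GGGCGG left in lower case; the CCAAT box appears as such on the gene's strand and as its complement ATTGG on the other. The Elovl6 window held none of the motifs searched, whereas the Sc4mol window held CCAAT at 3 places. Gene starts in GENCODE vM21, used for coordinates elsewhere in this report, differ from the RefSeq starts. By GENCODE the whole Sc4mol window lies inside the gene (chr8:64718139-64733792), and those of Idi1, Lss, Srebf2 and Elovl6 do so in part.
Hmgcs1 (GRCm38.p6, chr13:119690151-119690350, plus strand): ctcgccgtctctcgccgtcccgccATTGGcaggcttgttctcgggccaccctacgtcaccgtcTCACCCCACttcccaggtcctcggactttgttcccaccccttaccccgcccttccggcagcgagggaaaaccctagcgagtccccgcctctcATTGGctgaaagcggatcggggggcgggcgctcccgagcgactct
Idi1 (GRCm38.p6, chr13:8885406-8885605, plus strand): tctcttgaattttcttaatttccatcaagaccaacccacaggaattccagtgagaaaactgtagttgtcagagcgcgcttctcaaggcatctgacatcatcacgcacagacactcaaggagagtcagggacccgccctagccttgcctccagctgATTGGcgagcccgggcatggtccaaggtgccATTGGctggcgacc
Lss (GRCm38.p6, chr10:76531405-76531604, plus strand): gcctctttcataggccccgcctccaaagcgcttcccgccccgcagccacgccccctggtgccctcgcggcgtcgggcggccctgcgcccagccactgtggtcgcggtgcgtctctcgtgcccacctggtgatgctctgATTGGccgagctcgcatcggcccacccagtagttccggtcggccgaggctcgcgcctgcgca
Sc4mol (GRCm38.p6, chr8:64733579-64733778, minus strand): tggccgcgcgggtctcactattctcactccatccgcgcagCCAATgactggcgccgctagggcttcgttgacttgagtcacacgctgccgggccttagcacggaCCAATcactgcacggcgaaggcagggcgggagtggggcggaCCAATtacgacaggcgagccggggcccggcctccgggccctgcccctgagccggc
Srebf2 (GRCm38.p6, chr15:82147069-82147268, plus strand): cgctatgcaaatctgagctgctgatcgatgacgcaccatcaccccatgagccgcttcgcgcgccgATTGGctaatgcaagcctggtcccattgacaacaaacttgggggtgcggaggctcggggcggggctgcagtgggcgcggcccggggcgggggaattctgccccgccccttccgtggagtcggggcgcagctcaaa
Elovl6 (GRCm38.p6, chr3:129532186-129532385, plus strand): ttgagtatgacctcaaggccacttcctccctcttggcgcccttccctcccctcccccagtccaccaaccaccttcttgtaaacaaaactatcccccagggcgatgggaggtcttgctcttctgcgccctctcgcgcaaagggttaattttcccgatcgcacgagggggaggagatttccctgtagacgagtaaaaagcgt

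The genes that changed were mostly lower with BMP2 and mostly higher with E2, by small amounts. With BMP2, 11 of the 31 were lower than with vehicle and 2 were higher, at an adjusted p under 0.05 in edgeR's quasi-likelihood test, where 6.85% of all genes tested were lower and 6.84% higher. As shares of the 31, these were 35.5% lower and 6.45% higher, so only the lower share stood away from the background. The 31 genes were chosen with earlier results of these data known, and the difference in shares was not tested. With E2, 13 of the 31 were higher and 3 lower than with vehicle, beside 15.8% of all genes higher and 16.5% lower. In the direct comparison of E2 with BMP2, 18 were higher and 1 was lower with E2, beside 14.0% of all genes higher and 14.1% lower. The 31 genes are more highly expressed than many of those tested; among the 10124 genes with at least their lowest mean level of 12.5 CPM, 9.06% were lower with BMP2, 19.2% were higher with E2 than with vehicle and 16.8% were higher with E2 than with BMP2. The median log2 fold change of the 31 was -0.077 for BMP2 against vehicle, 0.049 for E2 against vehicle and 0.12 for E2 against BMP2, while over all genes tested it was -0.0015, -0.0026 and -0.0014. Log2 fold changes were negative for 28 of 31 with BMP2 and positive for 22 of 31 with E2. Groups whose libraries do not overlap were common in these data. For BMP2 against vehicle, 14.1% of all genes tested lay wholly higher and 14.0% wholly lower. These shares were 20.4% and 20.9% for E2 against vehicle, and 19.8% and 19.8% for E2 against BMP2. Of the 31 genes, 19, 16 and 22 did not overlap in these comparisons. Both comparisons with vehicle use the same 3 vehicle libraries, so their values are set side by side and not correlated.

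**Figure D1:**
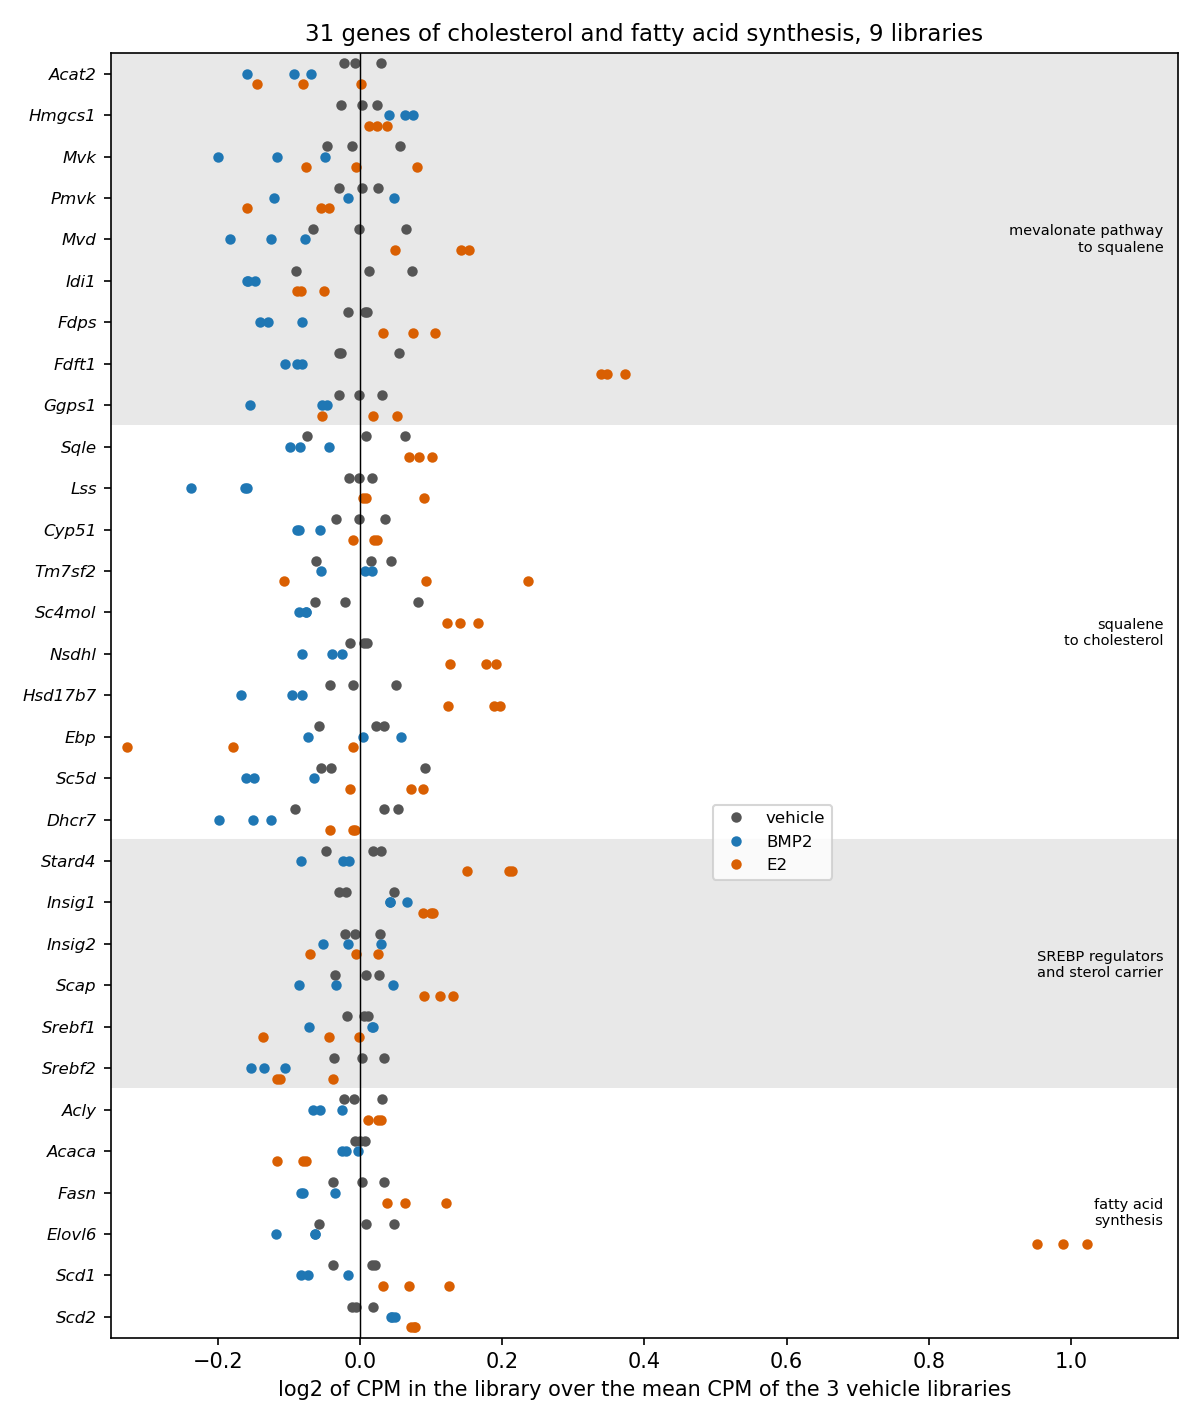
Level of each of the 31 genes in each of the 9 libraries, as the log2 of its CPM over the mean CPM of the 3 vehicle libraries, in pathway order; each point is a library, coloured by group. Elovl6 and Fdft1 stand out to the right in the E2 libraries, and most sterol enzymes have their BMP2 points to the left of their E2 points.

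Most changes were under 1.2-fold: this held for all 13 genes called with BMP2, for 14 of the 16 called with E2 against vehicle and for 16 of the 19 called between E2 and BMP2. The standard errors of the 31 log2 fold changes with BMP2 ran from 0.016 to 0.071. Over the 31 genes, 24 were called in at least 1 comparison. The other 7 (Mvk, Pmvk, Ggps1, Tm7sf2, Ebp, Insig2 and Srebf1) were called in none as reported here. The libraries are bulk, so fewer cells of a type and less RNA per cell cannot be told apart.

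**Figure D2:**
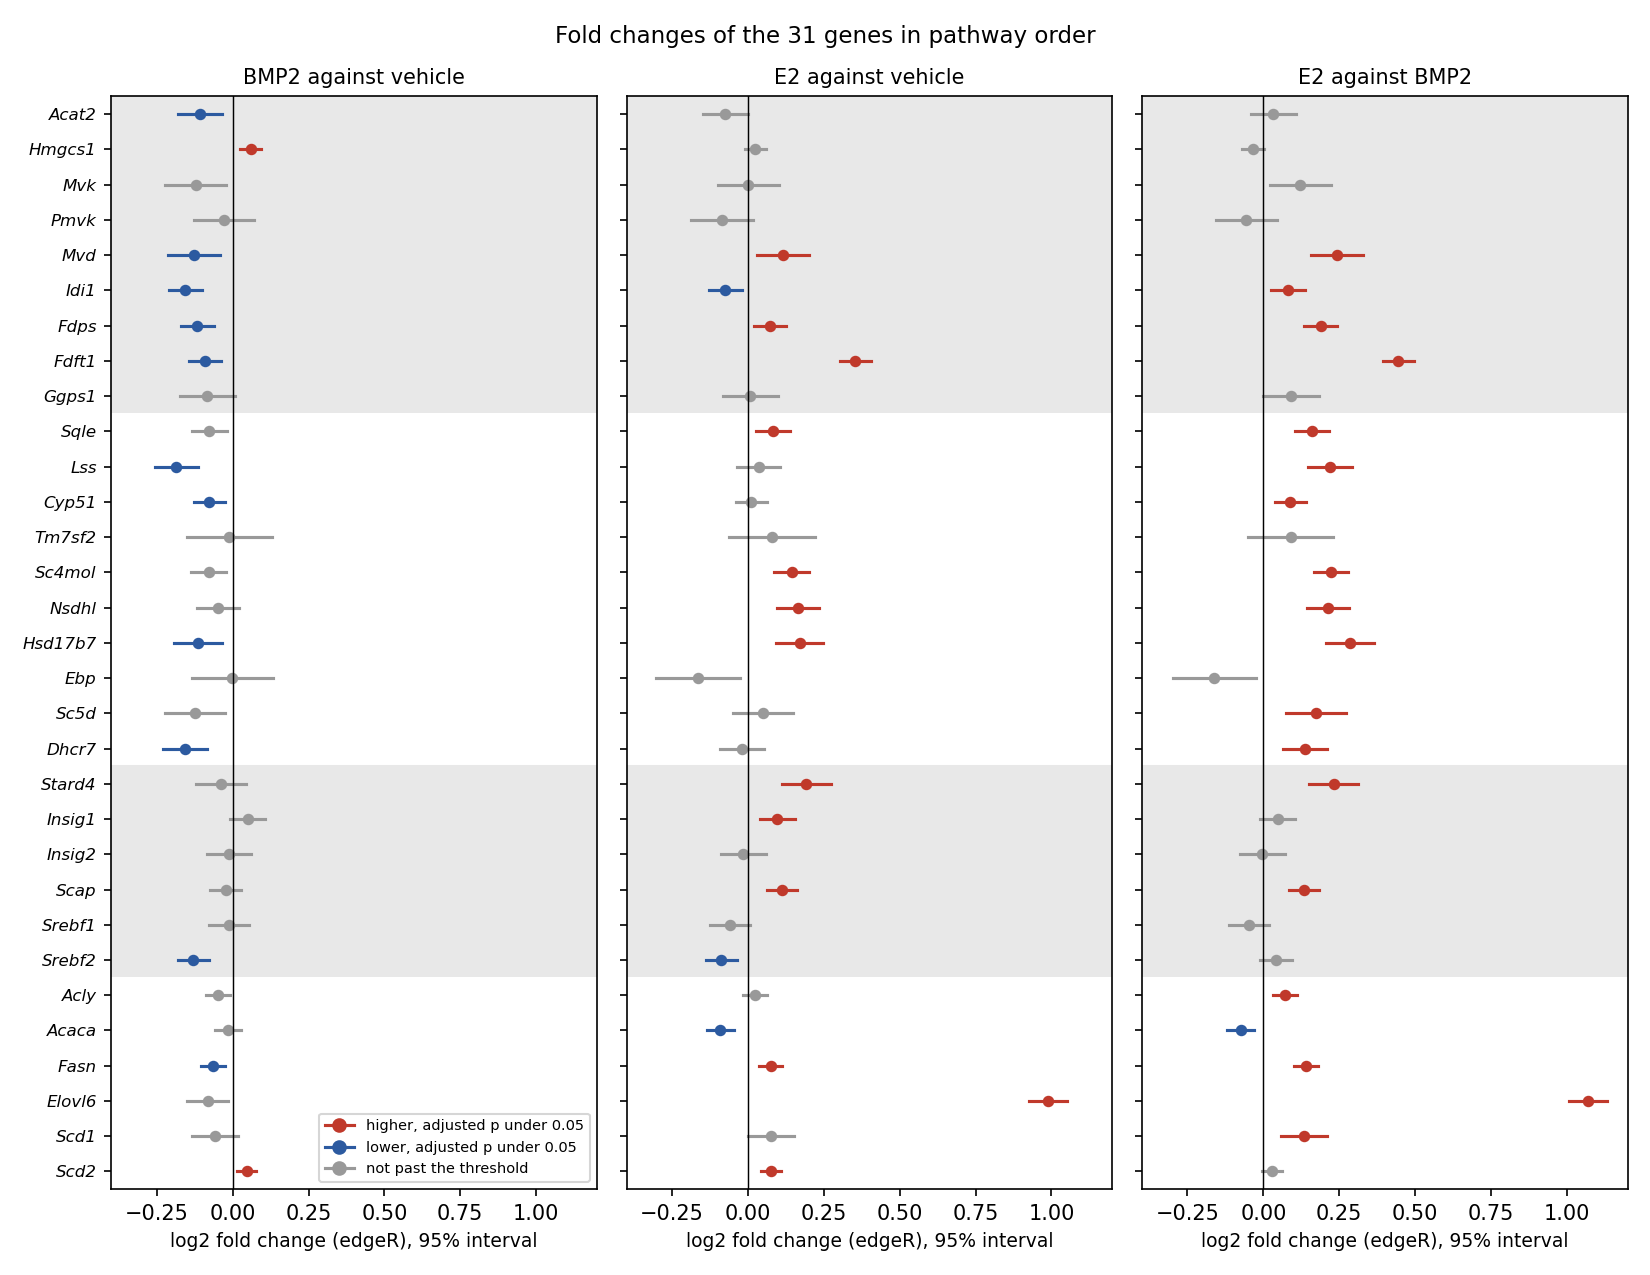
Log2 fold changes of the 31 genes with their 95% intervals in the 3 comparisons (edgeR, 3 libraries a group), in pathway order, with genes called at an adjusted p under 0.05 marked by colour. With BMP2 the called points lie left of 0 except Hmgcs1 and Scd2, and with E2 against BMP2 they lie right of 0 except Acaca.

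Among the 9 mevalonate pathway genes, 5 fell and 1 rose with BMP2, whereas 3 rose and 1 fell with E2. The BMP2 shares were 55.6% and 11.1%, beside 6.85% and 6.84% of all genes. The E2 shares were 33.3% and 11.1%, beside 15.8% and 16.5%. The sum of the 9 was 1053 to 1074 CPM in vehicle libraries, 1044 to 1058 with BMP2 and 1095 to 1109 with E2, so that E2 libraries stood above all others. The mean sum was 1064 CPM with vehicle and 1103 with E2, and most of this difference lay in 1 gene, Fdft1, with means of 108 and 139. Fdft1, the squalene synthase that commits farnesyl diphosphate to sterols, showed the largest E2 effect of the 9. Its levels were 106, 113 and 106 CPM with vehicle, 101, 102 and 103 with BMP2 and 137, 138 and 140.5 with E2. The E2 libraries lay apart from all the others, and the BMP2 libraries lay below those with vehicle. With E2 it was 1.28-fold higher than with vehicle (log2 fold change 0.35 ± 0.026, edgeR adjusted p = 3.54e-25), and with BMP2 it was 1.07-fold lower (-0.091 ± 0.027, adjusted p = 0.0113). Fdft1 lies on GRCm38 at chr14:63145150-63179578 on the minus strand, and 18.3% of its exon bases are also exon of Ctsb, a lysosomal protease gene on the opposite strand. Since the library kit does not mark strand, reads there cannot be assigned to 1 of the genes. Ctsb itself was 1.21-fold higher with E2 (0.27 ± 0.019, adjusted p = 8.95e-28), from 399, 398 and 402 CPM with vehicle to 480.4, 483 and 482 with E2, and its part in the Fdft1 value was not tested.

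Idi1, the isopentenyl diphosphate isomerase (chr13:8885501-8892451), was the mevalonate gene that fell most with BMP2. It stood at 118, 109.6 and 123 CPM with vehicle, 105, 105 and 105 with BMP2 and 109.8, 110.2 and 113 with E2. The BMP2 libraries were the lowest and did not overlap either other group, while the vehicle libraries were spread and the second of them lay below every E2 library. Idi1 was 1.11-fold lower with BMP2 (-0.16 ± 0.028, adjusted p = 5.00e-06) and 1.05-fold lower with E2 (-0.075 ± 0.028, adjusted p = 0.028), the only mevalonate gene called lower in both. Fdps, which makes farnesyl diphosphate, had 111, 111 and 109 CPM with vehicle, 104, 100.2 and 101 with BMP2 and 116, 113 and 119 with E2, so the groups were separate with vehicle in the middle. It fell with BMP2 (-0.12 ± 0.027, adjusted p = 6.86e-04) and rose with E2 (0.071 ± 0.027, adjusted p = 0.0308); 26.7% of its exon bases are shared with the predicted gene Gm43738 on the same strand. Mvd, the mevalonate diphosphate decarboxylase, followed the same order. Its levels were 36.9, 38.6 and 35.3 CPM with vehicle, 32.5, 35.01 and 33.8 with BMP2 and 41.1, 40.8 and 38.2 with E2, giving -0.13 ± 0.043 (adjusted p = 0.0325) with BMP2 and 0.12 ± 0.043 (adjusted p = 0.0274) with E2; the second vehicle library lay above the third E2 library.

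Acat2, a cytosolic thiolase at the head of the pathway with a close copy, Acat3, whose reads may not be fully separated from its own, was lower with BMP2 and did not pass with E2. It stood at 54.1, 52.2 and 52.8 CPM with vehicle, 47.5, 50.5 and 49.7 with BMP2 and 53.1, 48.0 and 50.2 with E2 (BMP2 against vehicle -0.11 ± 0.037, adjusted p = 0.0356), and all BMP2 libraries were below all vehicle libraries. Hmgcs1, which makes HMG-CoA, went the other way from the enzymes around it. Its levels were 555, 544 and 563 CPM with vehicle, 579, 569.8 and 583 with BMP2 and 569, 559 and 563 with E2, and it was 1.04-fold higher with BMP2 (0.059 ± 0.018, adjusted p = 0.0137). Every BMP2 library was above every vehicle and every E2 library. Parts of the exons of Hmgcs1 (12.1%) and Idi1 (9.21%) are also exon of a predicted gene on the opposite strand, Gm48342 and Gm48574. Mvk, the mevalonate kinase (-0.12 with BMP2, adjusted p = 0.0971), Pmvk, which adds the next phosphate (-0.028, adjusted p = 0.781), and Ggps1, which makes geranylgeranyl diphosphate for protein prenylation (-0.084, adjusted p = 0.241), did not pass in any comparison.

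Several of these calls depended on single libraries. The BMP2 calls of Idi1 and Fdps held whichever library was left out. Without BMP2 replicate 1, the edgeR adjusted p for BMP2 against vehicle was 0.239 for Acat2, 0.206 for Mvd, 0.0655 for Fdft1 and 0.062 for Hmgcs1. Without BMP2 replicate 3 it was 0.0655 for Acat2, 0.0807 for Mvd and 0.0843 for Hmgcs1. Without vehicle replicate 1 it was 0.166 for Acat2 and 0.0843 for Mvd, and without vehicle replicate 2 it was 0.21 for Mvd, 0.171 for Fdft1 and 0.11 for Hmgcs1. For E2 against vehicle, the Fdft1 call held without each library. Without vehicle replicate 1, the adjusted p was 0.0579 for Fdps, 0.0662 for Mvd and 0.0968 for Idi1, and without vehicle replicate 3 it was 0.0788, 0.167 and 0.374. Without E2 replicate 1 it was 0.069 for Fdps, 0.122 for Mvd and 0.099 for Idi1. Without E2 replicate 2 it was 0.107 for Mvd and 0.1 for Idi1, and without E2 replicate 3 it was 0.172 for Fdps. DESeq2 gave adjusted p-values of 0.137 for Acat2 and 0.124 for Mvd with BMP2, and of 0.0717, 0.0907 and 0.114 for Fdps, Mvd and Idi1 with E2. After modelling GC content and length, Fdps with E2 had an adjusted p of 0.117.

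The 10 enzymes from squalene to cholesterol were called in 1 direction per comparison. Of these, 4 fell and none rose with BMP2 (edgeR, 6 did not pass), and 4 rose and none fell with E2. With E2 against BMP2, 8 were higher and none lower. As shares, 40% fell with BMP2 (beside 6.85% of all genes) and 40% rose with E2 (beside 15.8%). Between E2 and BMP2, 80% were higher with E2 (beside 14.0%). At an unadjusted p under 0.05, 0 were higher with BMP2, 1 was lower with E2 and 1 was lower with E2 than with BMP2 (Ebp in both), and DESeq2 called 0 in each of these directions. Their sum was 576 to 592 CPM in vehicle libraries, 542 to 549.8 with BMP2 and 609 to 614 with E2, with no overlap between groups. Fold changes with BMP2 were negative for all 10, from -0.19 to -0.0019, except that Ebp was at 0.0069 once GC content and length were modelled and ranged from -0.032 to 0.033 as single libraries were left out, as did Tm7sf2 from -0.039 to 0.011.

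Lss, the lanosterol synthase that closes the sterol rings (chr10:76531588-76557138), was the member that fell most with BMP2. It stood at 54.6, 55.3 and 54.0 CPM with vehicle, 48.8, 48.9 and 46.3 with BMP2 and 55.0, 58.1 and 54.8 with E2. The BMP2 libraries were below all others, and the vehicle and E2 libraries overlapped. Lss was 1.14-fold lower with BMP2 (-0.19 ± 0.036, adjusted p = 3.73e-05) and did not pass with E2 (0.035 ± 0.036, adjusted p = 0.503). Dhcr7, which makes cholesterol in the last step of its branch, behaved in the same way, with 57.1, 56.3 and 51.7 CPM with vehicle, 48.0, 49.6 and 50.5 with BMP2 and 54.8, 53.5 and 54.7 with E2. It was 1.12-fold lower with BMP2 (-0.16 ± 0.037, adjusted p = 6.82e-04), and its E2 libraries lay within the vehicle range. Cyp51, the lanosterol demethylase, had 122, 124 and 128 CPM with vehicle, 119.9, 117 and 117 with BMP2 and 124, 126 and 127 with E2 (BMP2 against vehicle -0.077 ± 0.026, adjusted p = 0.0297).

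Hsd17b7, a 3-ketosteroid reductase of the demethylation complex that also reduces oestrone to estradiol, fell with BMP2 and rose with E2. Its levels were 41.5, 42.4 and 44.2 CPM with vehicle, 39.9, 40.3 and 38.0 with BMP2 and 48.9, 46.5 and 48.7 with E2, with no overlap between any of the groups. The log2 fold change was -0.11 ± 0.040 with BMP2 (adjusted p = 0.0395) and 0.17 ± 0.039 with E2 (adjusted p = 2.12e-04). Its partners in the demethylation of sterols rose with E2 and did not pass with BMP2. Sc4mol, the methylsterol oxidase, had 93.3, 96.1 and 103 CPM with vehicle, 91.9, 92.5 and 92.6 with BMP2 and 106, 109 and 108 with E2, 1.105-fold higher than vehicle (0.14 ± 0.029, adjusted p = 1.45e-05). Nsdhl, the sterol decarboxylase, had 53.7, 54.5 and 54.6 CPM with vehicle, 51.3, 52.8 and 53.3 with BMP2 and 59.2, 61.4 and 61.99 with E2 (0.17 ± 0.035, adjusted p = 4.50e-05). In both genes every E2 library was above every other library. Sqle, the squalene epoxidase that makes the first oxygenated sterol precursor, had 104, 94.5 and 100.1 CPM with vehicle, 93.9, 96.6 and 93.0 with BMP2 and 107, 104 and 105 with E2. It rose slightly with E2 (0.083 ± 0.029, adjusted p = 0.0167), and with BMP2 the value was -0.077 ± 0.029 (adjusted p = 0.0572).

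Sc5d, the lathosterol desaturase, was called only in the direct comparison of E2 with BMP2 (0.17 ± 0.050, adjusted p = 0.00368); its levels were 26.4, 26.7 and 29.2 CPM with vehicle, 24.7, 26.2 and 24.5 with BMP2 and 28.8, 27.2 and 29.2 with E2. Ebp, the sterol isomerase, was the sterol enzyme with the lowest fold change with E2 (-0.16 ± 0.070, adjusted p = 0.0624), on levels of 13.4, 14.2 and 14.1 CPM with vehicle, 14.5, 13.2 and 13.9 with BMP2 and 11.1, 12.3 and 13.8 with E2, where the third E2 library lay among the vehicle libraries. Without E2 replicate 3, Ebp passed (adjusted p = 0.0101). Tm7sf2, the other sterol reductase of this group, did not pass in any comparison (0.079 with E2, adjusted p = 0.44), and 12.1% of its exon bases are shared with Vps51. Of the BMP2 calls, those of Lss and Dhcr7 held without each library. Without vehicle replicate 2 or 3, the adjusted p was 0.0593 or 0.159 for Cyp51 and 0.065 or 0.197 for Hsd17b7. Without BMP2 replicate 3 it was 0.102 for Cyp51 and 0.228 for Hsd17b7, without BMP2 replicate 2 it was 0.1 for Cyp51, and without BMP2 replicate 1 it was 0.0683 for Hsd17b7. DESeq2 gave 0.084 and 0.128. The E2 calls of Hsd17b7, Sc4mol and Nsdhl held without each library, and that of Sqle was lost without vehicle replicate 2 (adjusted p = 0.246), without E2 replicate 1 (0.0641), with DESeq2 (0.0588) and once a trend on GC content and length was removed (0.199).

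**Figure D3:**
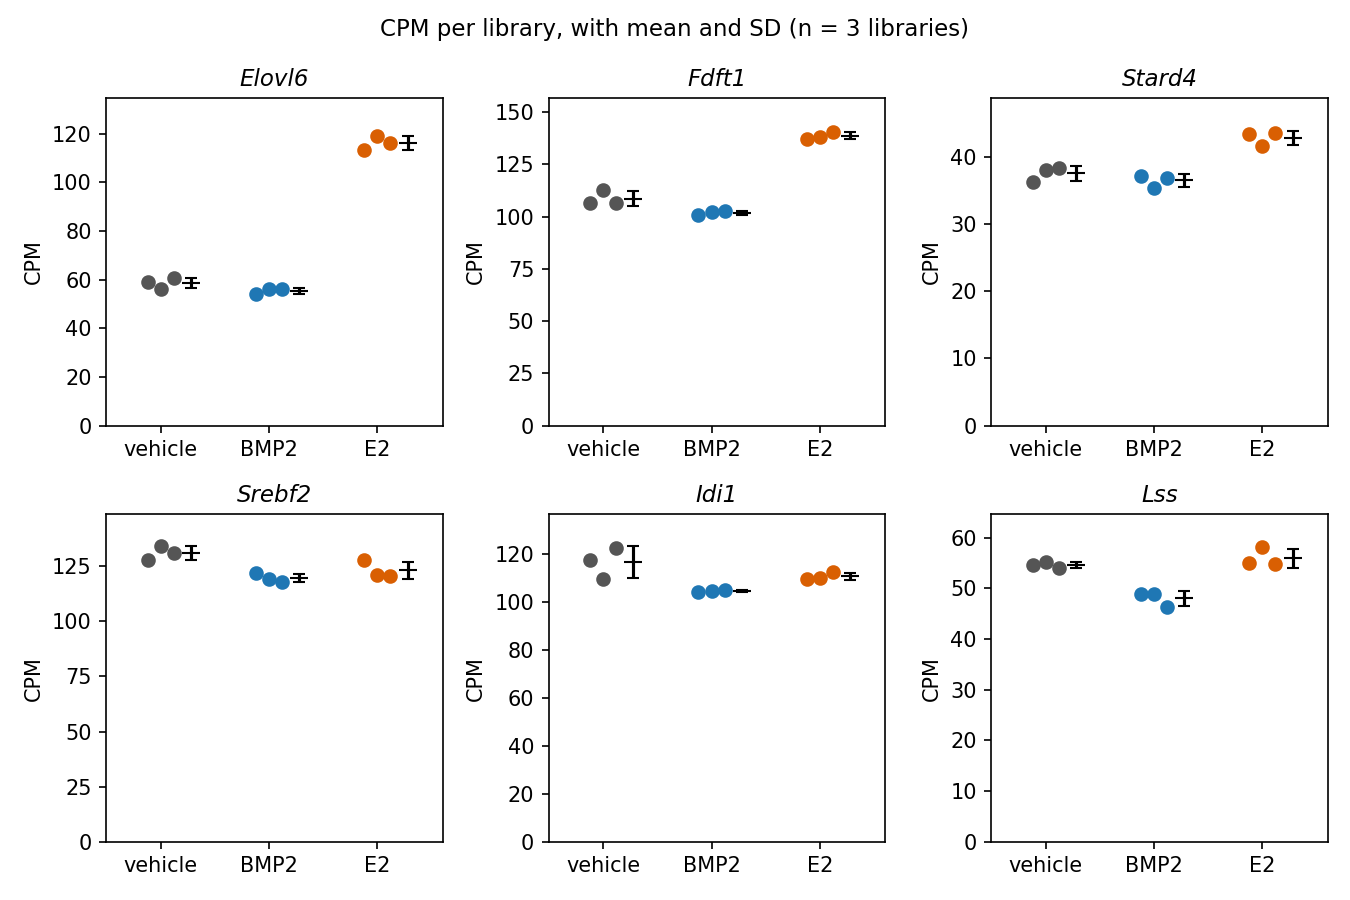
CPM per library of 6 of the genes in the 3 groups, with the mean and SD (n = 3) beside the points, on axes that start at 0. Elovl6 in the E2 libraries is at 114 to 119 CPM against 56.3 to 60.6 with vehicle, while the shifts of the other genes are smaller.

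The sensors and regulators did not move as a group. Of the 6 genes, 1 fell and none rose with BMP2 in edgeR (0 were higher at an unadjusted p under 0.05 or with DESeq2). With E2, 3 rose and 1 fell. The BMP2 share was 16.7% lower, beside 6.85% of all genes. The E2 shares were 50% higher, beside 15.8%, and 16.7% lower, near the 16.5% of all genes. Srebf2, which encodes the SREBP that drives sterol synthesis (chr15:82147181-82205379), was lower under both treatments. It stood at 128, 134 and 131 CPM with vehicle, 122, 119 and 118 with BMP2 and 128, 121 and 121 with E2. Every treated library was below every vehicle library, the nearest being the first E2 library. Srebf2 was 1.09-fold lower with BMP2 (-0.13 ± 0.026, adjusted p = 4.65e-05) and 1.06-fold lower with E2 (-0.089 ± 0.026, adjusted p = 0.00422); the E2 call was lost without E2 replicate 3 (adjusted p = 0.0518), while the BMP2 call held without each library. Between E2 and BMP2 it did not pass (0.042 ± 0.026, adjusted p = 0.242). Srebf2 fell in the E2 libraries in which 13 of the 31 genes rose.

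Srebf1, whose products favour fatty acid synthesis, did not pass in any comparison. Its levels were 67.0, 68.4 and 68.1 CPM with vehicle, 64.5, 68.6 and 68.7 with BMP2 and 65.8, 67.8 and 61.7 with E2, overlapping throughout, and the E2 value was -0.060 ± 0.034 (adjusted p = 0.177). Scap, the SREBP escort, had 143, 141 and 137 CPM with vehicle, 137, 145 and 132 with BMP2 and 151, 153 and 149 with E2, and rose 1.08-fold with E2 (0.11 ± 0.025, adjusted p = 1.57e-04), with all E2 libraries above all others; 13.2% of its exon bases overlap the antisense gene 5830462I19Rik. Insig1, an SREBP target that retains SCAP, had 87.8, 83.8 and 83.2 CPM with vehicle, 88.9, 87.4 and 87.4 with BMP2 and 91.0, 90.3 and 91.2 with E2. It rose slightly with E2 (0.10 ± 0.030, adjusted p = 0.00629), and its first vehicle library was above the BMP2 libraries that carry numbers 2 and 3. Insig2, its relative, stood at 48.6, 50.2 and 49.0 CPM with vehicle, 47.5, 48.7 and 50.3 with BMP2 and 49.1, 50.2 and 47.0 with E2 and did not pass (-0.016 ± 0.038 with E2, adjusted p = 0.8). Stard4, a cytosolic sterol carrier and SREBP target, had 36.3, 38.0 and 38.3 CPM with vehicle, 37.1, 35.4 and 36.9 with BMP2 and 43.4, 41.7 and 43.5 with E2. It rose 1.14-fold with E2 (0.19 ± 0.041, adjusted p = 6.06e-05), the largest change of the 6, and its E2 libraries did not overlap the others. The E2 calls of Scap, Insig1 and Stard4 held without each library.

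The 6 enzymes of fatty acid synthesis held the largest single change of the 31 genes. With E2, 3 rose (50%, beside 15.8% of all genes) and 1 fell (16.7%, near the 16.5% of all genes). With BMP2, 1 rose and 1 fell (16.7% each, beside 6.84% and 6.85%). Elovl6, which lengthens palmitate to stearate (chr3:129532355-129638495), stood at 59.0, 56.3 and 60.6 CPM with vehicle, 54.0, 56.2 and 56.1 with BMP2 and 114, 119 and 116 with E2. All E2 libraries were far above all others, and the BMP2 libraries lay just below those with vehicle. Elovl6 was 1.98-fold higher with E2 than with vehicle (0.99 ± 0.031, adjusted p = 4.32e-63) and 2.10-fold higher than with BMP2 (1.07 ± 0.031, adjusted p = 4.22e-67). With BMP2 the value was -0.082 ± 0.034 (adjusted p = 0.0942). Elovl6 and Fdft1 were the members that also passed a test against a change of 1.2-fold (E2 against vehicle: adjusted p = 8.09e-49 and 0.00183).

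Around Elovl6 the chain-building enzymes moved little and not all one way. Fasn, the fatty acid synthase, had 382, 391 and 372 CPM with vehicle, 361, 373 and 360.3 with BMP2 and 415, 399 and 391.8 with E2. It rose with E2 (0.074 ± 0.020, adjusted p = 0.00165) and fell with BMP2 (-0.066 ± 0.020, adjusted p = 0.0134), where the second BMP2 library overlapped the vehicle range. Acaca, the acetyl-CoA carboxylase that supplies malonyl-CoA to Fasn, fell with E2. Its levels were 187, 188 and 186 CPM with vehicle, 186, 184 and 183 with BMP2 and 176, 172 and 177 with E2, and every E2 library was below every other library (-0.091 ± 0.022, adjusted p = 5.14e-04, 1.06-fold lower than vehicle). Acly, which supplies cytosolic acetyl-CoA, had 290.0, 298 and 287 CPM with vehicle, 281, 287 and 279 with BMP2 and 298, 294 and 297 with E2 and was called only between E2 and BMP2 (0.071 ± 0.020, adjusted p = 0.00339).

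Scd2 and Scd1 insert the double bond into stearate and palmitate, and are closely similar neighbours on chromosome 19, so that reads of the pair may not be fully separated. Scd2 had 864, 861 and 879 CPM with vehicle, 897, 895 and 895 with BMP2 and 912, 915 and 916 with E2. It rose with E2 (0.075 ± 0.016, adjusted p = 8.16e-05) and with BMP2 (0.046 ± 0.016, adjusted p = 0.0456), and the groups did not overlap. Scd1 had 47.5, 47.7 and 45.7 CPM with vehicle, 44.6, 46.4 and 44.3 with BMP2 and 49.3, 48.0 and 51.2 with E2, and was called only between E2 and BMP2 (0.13 ± 0.038, adjusted p = 0.00334). The Scd2 call with BMP2 was lost without any of the BMP2 libraries (adjusted p = 0.141, 0.0847 and 0.0886), without vehicle replicate 1 or 2 (0.149 and 0.14) and without E2 replicate 2 or 3 (0.0552 and 0.0502). It was also lost with no filter on low counts (adjusted p = 0.0568), with only the groups compared (0.0654) and after modelling GC content and length (0.163). For Fasn with BMP2, the adjusted p was 0.102 without BMP2 replicate 1, 0.0925 without BMP2 replicate 3, 0.056 without vehicle replicate 1, 0.132 without vehicle replicate 2 and 0.0546 with DESeq2. For Fasn with E2 it was 0.0658 without E2 replicate 1. The E2 calls of Elovl6, Acaca and Scd2 held without each library.

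Set against each other, the treatments differed in 19 of the 31 genes. With E2, 18 were higher than with BMP2, including 12 of the 19 mevalonate and sterol enzymes (63.2%, beside 14.0% of all genes). None of these 19 enzymes was lower in edgeR (1 was lower at an unadjusted p under 0.05, and 0 with DESeq2). After Elovl6, the largest differences were in Fdft1 (1.36-fold, 0.45 ± 0.026, adjusted p = 1.49e-33) and Hsd17b7 (1.22-fold, 0.28 ± 0.040, adjusted p = 7.40e-10). Mvd (0.24), Stard4 (0.23), Sc4mol (0.22), Lss (0.22) and Nsdhl (0.21) came next, each between 1.16-fold and 1.18-fold higher with E2. Lss and Dhcr7 (0.14, adjusted p = 0.00174) were lower with BMP2 than with vehicle and did not pass between E2 and vehicle. Fdps (0.19), Sqle (0.16), Fasn (0.14), Scap (0.13), Cyp51 (0.088) and Idi1 (0.081) were also higher. Acaca was lower with E2 (-0.075 ± 0.022, adjusted p = 0.00557). Of these calls, 17 of the 18 held without each library and with DESeq2. Idi1 no longer passed on leaving out BMP2 replicate 1 (adjusted p = 0.0584), BMP2 replicate 2 (0.0502) or E2 replicate 3 (0.101), nor with DESeq2 (0.0846) or after modelling GC content and length (0.14), and Acaca no longer passed on leaving out E2 replicate 2 (0.07).

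Other values passed in some settings but not as reported. For BMP2 against vehicle, Sc4mol was lower with the replicate number as a block (edgeR adjusted p = 0.0318), without vehicle replicate 1 (0.0131) or 2 (0.0483) and after modelling GC content and length (0.0236). Sqle was lower with the block (0.0382), without BMP2 replicate 2 (0.0453) or vehicle replicate 2 (0.00637) and after modelling GC content and length (0.00812). Acly was lower without vehicle replicate 3 (0.0374) and Elovl6 without vehicle replicate 2 (0.0373), and both were lower after modelling GC content and length (0.00489 and 0.0369). For E2 against vehicle, Acat2 was lower without E2 replicate 1 (0.0332). For E2 against BMP2, Mvk was higher without BMP2 replicate 2 (0.0297), without E2 replicate 3 (0.0265) and after modelling GC content and length (0.0065), and Ebp was lower without E2 replicate 3 (0.0113). After modelling GC content and length, Srebf2 was also higher with E2 than with BMP2 (0.083, adjusted p = 0.0033) and Hmgcs1 lower (-0.066, adjusted p = 1.78e-04).

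Genes of the same pathways outside the 31 were read from 4 lists holding 63 genes, all of them tested. With BMP2, 5 were higher and 4 lower, 14.3% of the 63 beside 13.7% of all genes tested. With E2, 16 were higher and 14 lower than with vehicle, 47.6% of the 63 beside 32.3% of all genes. With E2 against BMP2, 15 were higher and 17 lower, 50.8% beside 28.2%. Their median log2 fold changes were 0.0024, -0.020 and -0.025, without the shift that the 31 genes showed. Of 12 further genes of sterol and isoprenoid synthesis, 1 fell with BMP2, and 3 rose and 4 fell with E2. The BMP2 share was 8.33%, near the 6.85% of all genes. The E2 shares were 25% and 33.3%, beside 15.8% and 16.5%. With E2, Nus1, a subunit of the dolichol-making prenyltransferase, rose (0.19) and Fdxr, the ferredoxin reductase of mitochondrial steroid synthesis, fell (-0.22).

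Of 12 genes of SREBP processing and sterol sensing, 2 rose with BMP2 (16.7%, beside 6.84% of all genes). Under E2, 2 rose and 2 fell. The E2 shares, 16.7% in each direction, are near the 15.8% and 16.5% of all genes. Mbtps1, the site-1 protease that cuts SREBP in the Golgi, rose with E2 (0.14 ± 0.020, adjusted p = 8.91e-10). Fbxw7, which marks active SREBP for degradation, was higher with BMP2 (0.16 ± 0.030, adjusted p = 2.22e-05). Rnf145, a sterol-responsive ubiquitin ligase, was lower with E2 (-0.071 ± 0.027, adjusted p = 0.0347), a call lost without vehicle replicate 1 (adjusted p = 0.0905), vehicle replicate 2 (0.0647), E2 replicate 1 (0.154) or E2 replicate 2 (0.0809), and with DESeq2 (0.0863).

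Larger changes with E2 lay in single genes of uptake, storage and glycerolipid synthesis. Of 17 genes of sterol uptake, storage and efflux, 6 rose and 5 fell with E2 (35.3% and 29.4%, beside 15.8% and 16.5% of all genes). With BMP2, 3 rose and 2 fell (17.6% and 11.8%, beside 6.84% and 6.85%). Scarb1, the HDL receptor that brings in cholesterol esters, stood at 56.6, 56.4 and 55.8 CPM with vehicle, 53.3, 48.5 and 53.6 with BMP2 and 100.04, 99.8 and 98.1 with E2, 1.76-fold higher with E2 (0.82 ± 0.032, adjusted p = 1.84e-51). It was lower with BMP2 (-0.12 ± 0.035, adjusted p = 0.0108), a call that leaving out BMP2 replicate 2 ended (adjusted p = 0.227). Soat1, which esterifies cholesterol for storage, stood at 553, 552 and 569.8 CPM with vehicle and 873, 894 and 891 with E2, 1.59-fold higher (0.67 ± 0.017, adjusted p = 1.00e-72). Vldlr, a lipoprotein receptor, rose under both treatments. It stood at 12.8, 13.0 and 12.6 CPM in vehicle libraries, at 19.3, 18.3 and 18.9 with BMP2 (1.47-fold, 0.56 ± 0.062, adjusted p = 3.54e-13) and at 21.6, 22.9 and 23.9 with E2 (1.78-fold, 0.83 ± 0.061, adjusted p = 9.10e-26). Abcg1, a sterol exporter, was higher with BMP2 (0.25 ± 0.084, adjusted p = 0.0266), a call that ended on leaving out BMP2 replicate 2 (adjusted p = 0.124), vehicle replicate 1 (0.185) or vehicle replicate 2 (0.0545), and with DESeq2 (0.125). Ch25h, which makes 25-hydroxycholesterol, was 1.58-fold lower with E2 than with BMP2 (-0.66 ± 0.21, adjusted p = 0.00842) at levels of 0.889 to 2.00 CPM, a call that ended on leaving out BMP2 replicate 3 (adjusted p = 0.0638) or E2 replicate 2 (0.0821).

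Of 22 further genes of fatty acid and glycerolipid synthesis, 5 rose and 3 fell with E2. These were 22.7% and 13.6%, beside 15.8% and 16.5% of all genes. With BMP2, 1 fell (4.55%, beside 6.85% of all genes). Gpam, which starts glycerolipid synthesis, had 81.0, 81.5 and 80.8 CPM with vehicle and 149.7, 147 and 147 with E2, 1.83-fold higher (0.87 ± 0.027, adjusted p = 2.31e-63). Mlxipl, which encodes the carbohydrate-responsive lipogenic factor ChREBP, had 5.18, 6.09 and 6.09 CPM with vehicle and 13.2, 11.6 and 12.1 with E2, 2.13-fold higher (1.09 ± 0.086, adjusted p = 2.37e-23). Acacb, the mitochondrial acetyl-CoA carboxylase, rose 1.39-fold with E2 (0.47 ± 0.059, adjusted p = 1.09e-11), in contrast to Acaca. Elovl5, an elongase of polyunsaturated fatty acids, was 1.29-fold higher with E2 than with BMP2 (0.36 ± 0.024, adjusted p = 7.56e-29). Acss2, which makes acetyl-CoA from acetate and is an SREBP target, fell with BMP2 (-0.18 ± 0.038, adjusted p = 8.49e-05).

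**Figure D4:**
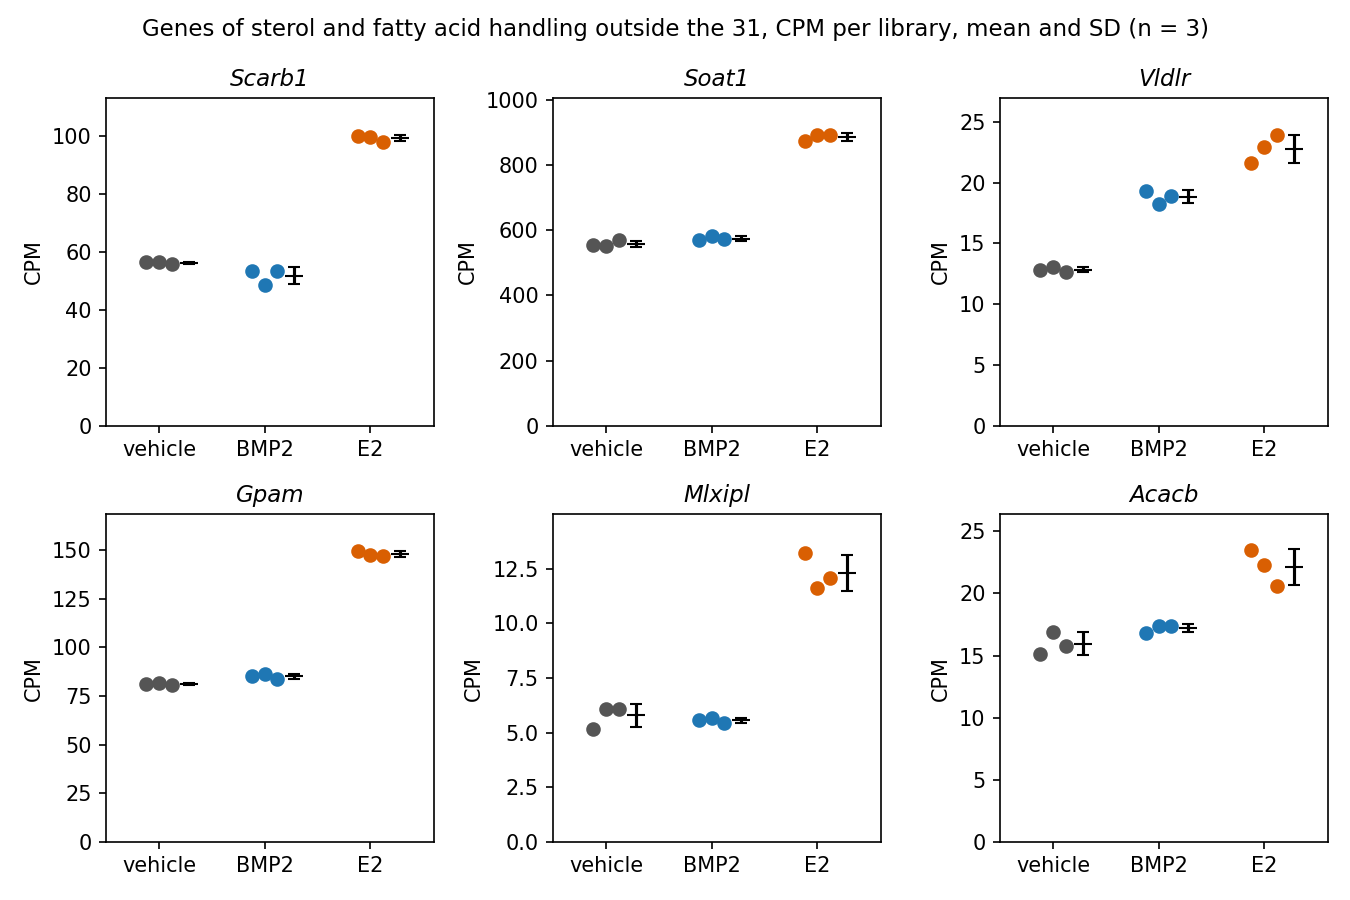
CPM per library of 6 genes of sterol and fatty acid handling outside the 31, in the 3 groups, with the mean and SD (n = 3), on axes that start at 0. The E2 libraries are above all others in each, and Vldlr is also higher with BMP2. These genes were named by a rule that required no overlap between the groups compared. Their separation between E2 and vehicle therefore follows from how they were chosen.

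Summed markers of the cell types that the ovary or its surroundings could hold were read beside these genes. For the counts of markers called, the background is 13.7% of all genes called with BMP2 and 32.3% with E2 against vehicle. Those of the surface epithelium (7 of 7 lower under each treatment) were 621 to 646 CPM in vehicle libraries, 543 to 556 in BMP2 libraries and 427 to 434 in E2 libraries. Those of pregranulosa cells, the somatic cells that enclose oocytes, were 1839 to 1896 in vehicle libraries, 1880 to 1894 in BMP2 libraries and 1668 to 1683 in E2 libraries (3 of 7 rose and 1 fell with BMP2, and 2 rose and 2 fell with E2). Germ cell markers were 1698 to 1803 CPM in vehicle libraries, 1765 to 1827 in BMP2 libraries and 1778 to 1801 in E2 libraries, and 3 of 6 rose under each treatment. Steroidogenic markers (Star, Cyp11a1, Hsd3b1, Cyp17a1) summed to 137 to 140.2 CPM in vehicle libraries, 156 to 162 in BMP2 libraries and 163 to 169 in E2 libraries, of which Hsd3b1 made up most; 1 of the 4 rose with BMP2, and 2 rose and 2 fell with E2. Stromal markers stood at 872 to 894 CPM in vehicle libraries, 851 to 856 in BMP2 libraries and 789 to 800.3 in E2 libraries (2 of 6 fell with BMP2, and 3 rose and 3 fell with E2). Pericyte and smooth muscle markers were 391 to 401 CPM in vehicle libraries, 359 to 362 in BMP2 libraries and 529 to 541 in E2 libraries (2 of 6 fell with BMP2, and 1 rose, Myh11, and 1 fell with E2).

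Endothelial markers overlapped in their sum, at 205 to 211 CPM in vehicle libraries, 205 to 211 in BMP2 libraries and 201 to 212 in E2 libraries, while 1 of 6 rose with BMP2, and 5 rose and 1 fell with E2. Markers of blood cells also moved. Erythroid markers summed to 20.1 to 21.8 CPM in vehicle libraries, 26.2 to 27.2 in BMP2 libraries (2 of 5 tested rose) and 31.7 to 35.1 in E2 libraries (5 of 5 rose), with Hba-a1 at 0 in every library. Neutrophil markers were 69.6 to 71.7 CPM in vehicle libraries, 43.9 to 45.1 in BMP2 libraries (2 of 6 rose and 4 fell) and 50.2 to 55.2 in E2 libraries (5 of 6 fell). Macrophage markers stood at 63.8 to 66.8 CPM in vehicle libraries, 60.4 to 62.5 in BMP2 libraries (0 of 5 passed) and 56.2 to 56.6 in E2 libraries (3 of 5 fell). Those of mesonephric tubules summed to 5.75 to 7.62 CPM over all libraries (1 of 3 tested fell with BMP2). Markers of strongly lipogenic cell types were scarce. Those of adipocytes summed to 3.57 to 5.27 CPM over all libraries, with Adipoq, Cidec and Lep at or near 0 (1 of 3 tested fell with BMP2 and 0 passed with E2). Those of hepatocytes were 1.00 to 1.52 CPM in vehicle libraries, 1.46 to 1.80 in BMP2 libraries and 2.01 to 2.70 in E2 libraries, and 2 of 3 tested, Afp and Alb, rose with E2. The part of these cell types in the values of the 31 genes was not tested.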

How the data were processed

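Per the labels' protocols, total RNA came from a Qiagen micro kit, RNA of an integrity number over 9 went into libraries, and the Illumina TruSeq RNA v2 kit, which keeps no strand information, was used. The deposited values are raw read counts per gene, 1 table per library, per the file contents. The submitters' processing notes name TopHat2, HTSeq, DESeq2 and the build mm10; versions, the annotation and whether counting used strand: not given in the sources used here. The rows for reads not counted in any gene, for whatever reason, held 38.2% to 39.7% of a library's total. They entered neither library sizes nor tests. Their share was 38.4% to 39.1% in vehicle libraries, 38.2% to 38.6% with BMP2 and 39.5% to 39.7% with E2, so E2 libraries lay above all others.

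The main test was edgeR 4.0.16 (R 4.3.3): filterByExpr (minimum count 10, minimum total 15), TMM scaling, and a robust quasi-likelihood fit of all 9 libraries with a mean per group (6 residual degrees of freedom). P-values were adjusted over 16360 genes by the Benjamini-Hochberg method, and genes with an adjusted p under 0.05 were called. Values after ± are standard errors for log2 fold changes. Levels are TMM-normalised CPM; exon lengths and coordinates are from GENCODE vM21 (GRCm38). The method was tested on simulated data with changes set in the E2 group only and read for E2 against vehicle. The outcome is not reported here, and the BMP2 comparisons were not simulated with changes.

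The 31 genes and all lists were chosen with earlier results of these data known. All 31 may be named, with values in every library for those called in any comparison and for Insig1, Insig2, Scap, Srebf1 and Srebf2. From each list of other pathway genes, up to 3 called genes per comparison are named, by the largest absolute log2 fold change among those with a mean of at least 1 CPM in the higher group and no overlap between groups. Some genes that this rule names are not reported here. Alternatives were other size factors, DESeq2 1.42.0, other filters, only the groups compared, a replicate block, each library left out, a test against a 1.2-fold change, an adjusted p under 0.01, and removal of a trend on GC content and length (splines with 5 degrees of freedom, 16211 genes).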

Additional observations from a re-analysis of the deposited data

How the results depend on the processing

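With median-ratio size factors or a mean CPM of at least 1 in place of the filter, every count of called members was as reported. Against a change of 1.2-fold, the members higher and lower were 0 and 0 with BMP2, 2 and 0 with E2 against vehicle, and 2 and 0 with E2 against BMP2; the other pathway genes higher and lower were 1 and 0, 9 and 2, and 6 and 2. At an adjusted p under 0.01, members higher with BMP2 numbered 0 and lower 5. DESeq2 called 6 members lower with BMP2. Without the filter, with only the groups compared, or with the GC and length trend removed, 1 member was higher with BMP2; with that trend removed, 2 were lower with E2 than with BMP2. Without each library in turn, members higher with BMP2 ranged from 0 to 2, members lower with BMP2 from 6 to 11 (6 without BMP2 replicate 1 or BMP2 replicate 3), and members lower with E2 than with BMP2 from 0 to 2 (0 without E2 replicate 2, 2 without E2 replicate 3). The next counts are of called members that stayed called in every refit at an adjusted p under 0.05, leaving aside the test against a 1.2-fold change. They were 5 of 11 lower and 0 of 2 higher with BMP2, and 9 of 13 higher and 1 of 3 lower with E2. For E2 against BMP2 they were 17 of 18 higher and 0 of 1 lower. With that test and the 0.01 threshold also counted, 0 of 13 called members stayed with BMP2, 2 of 16 with E2 and 2 of 19 with E2 against BMP2. Where a call was lost, the cause was not tested.

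The labels do not say that a replicate number marks a shared source. Deviations of libraries with the same number correlated at -0.00903 to 0.0709 (median 0.0183), and of those with different numbers at -0.0414 to 0.0358 (median -0.0163). These correlations are weak. The highest were those of BMP2 replicate 3 with E2 replicate 3 (0.0709) and with vehicle replicate 3 (0.0417), which share a number. Vehicle replicate 1 correlated best with a library of another number. Since the labels give no pairing, the numbers were not used as pairs in the main test. With the replicate block, 2 members were higher and 13 lower with BMP2, 13 and 3 with E2, and 18 and 1 with E2 against BMP2.

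No called member changed direction. Of 93 member results, 16 reversed in some setting. With the GC and length trend removed, the log2 fold change was 0.0069 for Ebp with BMP2, and -0.026 for Cyp51, -0.027 for Ggps1, -0.0090 for Hmgcs1 and -0.0047 for Lss with E2; with the block it was -8.86e-04 for Mvk with E2. Without each library, BMP2 values ranged from -0.032 to 0.033 for Ebp, -0.034 to 0.0081 for Insig2, -0.068 to 0.016 for Pmvk, -0.059 to 0.0071 for Scap, -0.027 to 0.018 for Srebf1 and -0.039 to 0.011 for Tm7sf2. E2 values ranged from -0.0063 to 0.030 for Cyp51, -0.063 to 0.0084 for Dhcr7, -0.015 to 0.037 for Ggps1, -0.036 to 0.012 for Insig2, -0.040 to 0.039 for Mvk and -0.0034 to 0.17 for Tm7sf2, and E2 against BMP2 from -0.0046 to 0.068 for Acat2 and -0.024 to 0.024 for Insig2. Errors were widest for members of low level: the standard error with BMP2 was 0.071 for Tm7sf2 and 0.016 for Scd2.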

Other observations

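Beyond the genes named by rule, some further genes were looked at after their values were seen. Acss2, which is also lower with BMP2, fell with E2 from 53.1, 53.6 and 54.6 CPM with vehicle to 39.0, 42.8 and 42.6 (-0.37 ± 0.039, edgeR adjusted p = 1.18e-15), and Me1, the malic enzyme that supplies NADPH, from 109.7, 113 and 112 to 88.4, 91.5 and 93.5 (-0.29 ± 0.028, adjusted p = 3.37e-17).

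Among the genes of sterol uptake, storage and efflux, Abca1, the exporter of cholesterol to HDL, rose 1.34-fold with E2 (0.42 ± 0.021, adjusted p = 3.77e-40), from 208, 208 and 210.5 CPM to 279, 280.5 and 276, and 1.07-fold with BMP2 (0.10 ± 0.021, adjusted p = 1.73e-04). Abcg1, which is higher with BMP2, fell with E2 (-0.37 ± 0.093, adjusted p = 6.59e-04), and so did Apoe, the lipid carrier (-0.26 ± 0.029, adjusted p = 8.29e-11). Npc2, the lysosomal sterol carrier, fell under both treatments (-0.088 ± 0.022 with BMP2, adjusted p = 0.00225, and -0.17 ± 0.023 with E2, adjusted p = 2.21e-10).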
